A study of Mus musculus with 4 samples.

Results

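S100 genes other than the neutrophil pair S100a8 and S100a9 were examined in mouse lung tumour preparations with and without the deubiquitinase Usp25. The members were 9 genes listed by symbol, S100a1, S100a4, S100a6, S100a10, S100a11, S100a13, S100a14, S100a16 and S100g. All 9 were among the 21420 named genes of the deposited table, and all 9 were among the 12476 genes tested, those whose mean reached 1 FPKM in KL25 or in KL. FPKM, fragments scaled by gene length and sequencing depth, is the unit read from the values, since the table's header names none. RNA came from cells labelled CD45-negative, prepared from tumour-burdened lungs 10 weeks after intranasal adenoviral Cre. KL25 mice were Usp25-/- and carried tumour alleles that Cre activates or deletes, including floxed Lkb1 (Stk11), which encodes a tumour suppressor kinase. KL mice carried the same Cre-controlled alleles without the Usp25 deletion. Each group had 2 libraries from 2 mice. Cre recombines the floxed alleles only in the cells the virus reaches, whereas the Usp25 label names no Cre-dependent allele. The animals' age was not stated in the labels. The comparison asked how loss of Usp25 changed the transcriptome of these preparations.

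S100 proteins are small calcium-binding proteins with a pair of EF-hand motifs. Most work as dimers that expose a binding surface when calcium rises and then hold annexins, cytoskeletal proteins or enzymes, and some are released and bind cell surface receptors such as RAGE, the product of Ager. S100a10 no longer binds calcium, and S100g (calbindin-D9k) is a monomer that buffers calcium. In mouse most of the family is clustered on chromosome 3, and in epithelial tumours several members are known for high levels in malignant cells.

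Of the 9 members 8 lay on chromosome 3 (GRCm38, GENCODE annotation matched by symbol) and S100g on chromosome X. S100a1, S100a13, S100a14, S100a16, S100a4 and S100a6 lay in this order between chr3:90511034-90624181, a stretch of 113 kb. S100a11 and S100a10 lay at chr3:93520488-93564643, with 28792 bases between them. S100a1 is on the minus strand and S100a13 on the plus strand, and their starts face each other with 42 bases between them. In RefSeq's gene models of the same build they overlap by 98 bases. S100g, at chrX:162961992-162964599, lies inside Ctps2 on the opposite strand. S100a4 overlaps the predicted gene Gm42674 on the same strand. The library kit keeps strand, but the strand setting of the counting and the treatment of reads in such overlaps were not given in these sources.

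RefSeq's promoter windows (GRCm38.p6, 250 bases before to 50 after each start site) matched 7 of the 9 members, all but S100a10 and S100a14. The window of S100a13, at chr3:90514185-90514484 on the plus strand, is shown because it shares 204 bases, in capitals, with the window of S100a1 on the other strand.
S100a13: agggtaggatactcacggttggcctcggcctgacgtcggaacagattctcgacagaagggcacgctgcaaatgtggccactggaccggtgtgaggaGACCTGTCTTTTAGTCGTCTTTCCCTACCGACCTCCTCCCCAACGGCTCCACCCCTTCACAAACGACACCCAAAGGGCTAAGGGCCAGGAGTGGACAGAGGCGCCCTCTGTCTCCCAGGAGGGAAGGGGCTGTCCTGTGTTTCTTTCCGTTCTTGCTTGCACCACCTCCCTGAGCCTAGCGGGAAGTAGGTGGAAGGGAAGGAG
Both windows of S100a16 are shown because it was the member with a window whose groups did not overlap. They lie at chr3:90537004-90537303 and chr3:90540896-90541195, on the plus strand, with motif matches in capitals.
S100a16 first window: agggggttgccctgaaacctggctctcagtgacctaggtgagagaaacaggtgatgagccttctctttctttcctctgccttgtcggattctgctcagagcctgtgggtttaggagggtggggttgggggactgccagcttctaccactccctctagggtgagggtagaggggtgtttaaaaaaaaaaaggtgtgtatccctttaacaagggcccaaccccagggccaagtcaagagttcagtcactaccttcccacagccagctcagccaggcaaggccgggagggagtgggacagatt
S100a16 second window: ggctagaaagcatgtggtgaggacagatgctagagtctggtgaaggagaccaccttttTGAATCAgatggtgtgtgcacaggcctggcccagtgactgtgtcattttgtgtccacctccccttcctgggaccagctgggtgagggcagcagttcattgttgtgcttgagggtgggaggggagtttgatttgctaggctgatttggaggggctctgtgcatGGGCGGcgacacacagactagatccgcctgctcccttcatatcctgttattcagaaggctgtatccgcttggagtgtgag
The windows of S100a11 (chr3:93520246-93520545) and S100a4 (chr3:90603520-90603819), both on the plus strand, are shown for their motif matches, again in capitals.
S100a11: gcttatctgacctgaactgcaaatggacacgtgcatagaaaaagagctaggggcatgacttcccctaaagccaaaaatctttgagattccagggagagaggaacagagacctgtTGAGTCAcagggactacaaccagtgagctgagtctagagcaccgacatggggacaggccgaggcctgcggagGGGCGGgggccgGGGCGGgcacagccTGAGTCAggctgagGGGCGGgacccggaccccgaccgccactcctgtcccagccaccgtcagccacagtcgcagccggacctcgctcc
S100a4: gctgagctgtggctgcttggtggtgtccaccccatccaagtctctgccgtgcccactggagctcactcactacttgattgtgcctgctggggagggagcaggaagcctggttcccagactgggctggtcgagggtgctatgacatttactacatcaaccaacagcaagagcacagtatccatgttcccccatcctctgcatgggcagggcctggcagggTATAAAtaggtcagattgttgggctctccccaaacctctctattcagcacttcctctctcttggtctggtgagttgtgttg
The motifs searched, on both strands, were the AP-1-like pattern TGANTCA, the GC box GGGCGG and the TATA element TATAAA. N stands for any base, so TGANTCA is a loose pattern. No matches overlapped within a member's window. Among 32851 RefSeq windows, TGANTCA was held by 7.81%, GGGCGG by 35.7% and TATAAA by 13.6%. The S100a11 window held 2 matches to TGANTCA, starting at -136 and -38 from the start site, and 3 to GGGCGG. The S100a4 window held TATAAA at -31, and the second S100a16 window held 1 match each to TGANTCA and GGGCGG. No match was found in the windows of S100a1, S100a13 and S100a6 or in the first S100a16 window, and the S100g window held 1 TATAAA match.

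Relative depth, read as size factors from the deposited means, was 0.853 and 0.823 in KL25 and 1.30 and 1.09 in KL. KL replicate 1 stood apart, with correlations across genes of 0.874 to 0.885 with the other libraries, against 0.933 to 0.967 among those. Usp25 itself was at 2.65 and 1.71 FPKM in KL25 and at 38.5 and 16.6 FPKM in KL. Leukocyte RNA was present in every library despite the CD45 depletion: Ptprc, which encodes CD45, was at 51.0 and 43.3 FPKM in KL25 and at 123 and 46.4 FPKM in KL. In bulk samples fewer cells of a type and less RNA per cell cannot be told apart. The labels do not say more about the separate preparations, so p-values measure the spread between these libraries.

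The S100 genes were abundant. By their mean over the 4 libraries the order was S100a11 (1159 FPKM), S100a1 (875 FPKM), S100a6 (709 FPKM), S100a10 (324 FPKM), S100a13 (105 FPKM), S100a14 (88.6 FPKM), S100a16 (75.0 FPKM), S100a4 (73.1 FPKM) and S100g (9.40 FPKM). Ranges over the libraries overlapped between all neighbours in this order except S100a10 with S100a13 and S100a4 with S100g. S100a11 stood at percentiles 99.6 to 99.9 of all genes over the libraries, and S100g at percentiles 57.4 to 81.2. The mean normalized count in the authors' deposited table was 6609 for S100a11 and 51.0 for S100g, so S100g rests on the fewest reads of the 9. Together the 9 genes summed to 4995 and 2757 FPKM in KL25 and to 2577 and 3343 FPKM in KL. S100a8 and S100a9, the calprotectin subunits of neutrophils, summed to 1851 and 1072 FPKM in KL25 and to 37473 and 654 FPKM in KL.

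**Figure D1:**
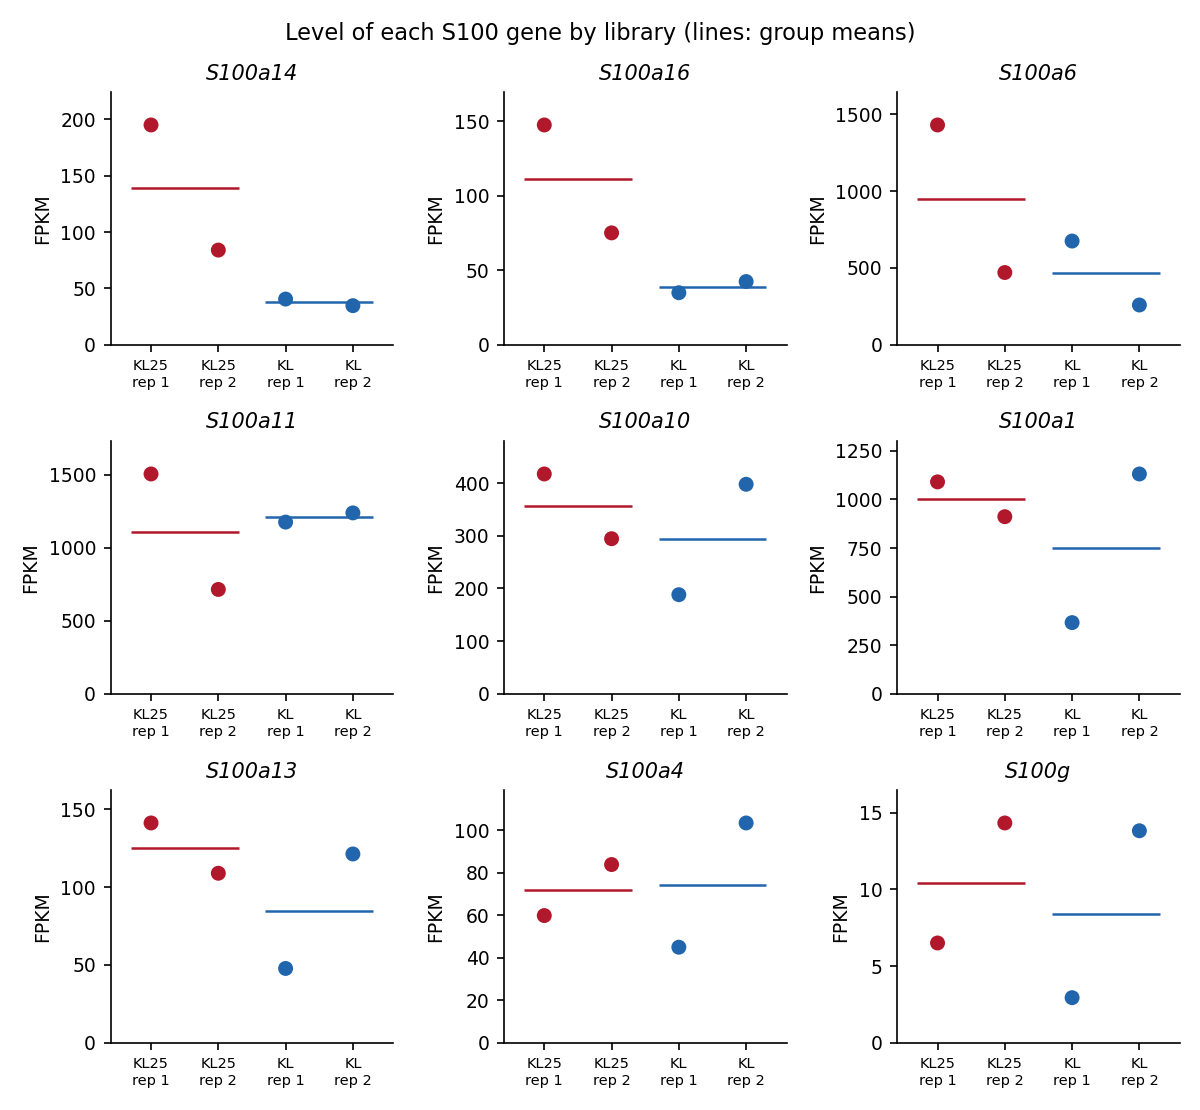
Level in FPKM of each of the 9 S100 genes in each library (points), with group means as lines, KL25 in red and KL in blue. S100a14 and S100a16 are the members with both KL25 libraries above both KL libraries.

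Against all genes tested, 8 of the 9 members had a positive log2 fold change (KL25 over KL, on the log2(FPKM + 1) scale), as did 53.1% of all genes. The median over the members was 0.63, and over all genes tested it was 0.030. This median turned on KL replicate 1: it was -0.18 without that library and 1.36 without KL replicate 2. No member passed in limma at an adjusted p below 0.05, where 0% of the 12476 genes passed in either direction. With an unadjusted p below 0.05, S100a14 and S100a16 were higher in KL25, as were 2.16% of all genes, and no member was lower, as 1.07% of all genes were. The authors' deposited table gave no member an adjusted p below 0.05 either, where 0.0880% of 14770 genes were called higher and 0.0339% lower. The same pair had both KL25 libraries above both KL libraries, as did 19.1% of all genes. No member had both KL25 libraries below both KL libraries, which 15.0% of all genes did. With 2 libraries against 2, a two-sided exact permutation test of a single gene cannot go below p = 0.333. Usp25, the deleted gene, did not pass in limma either (log2 fold change -3.07, unadjusted p = 0.00103, limma adjusted p = 0.942). In the authors' deposited table its adjusted p was 0.0170. In simulated tables of this spread the fit recovered 2.7% of genes changed 4-fold and 43.7% of those changed 16-fold. The changed genes were drawn at random from all 12476, low ones included, and raised or lowered, so these rates are not specific to the members.

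Both KL25 libraries stood above both KL libraries in 2 of the 9 members, S100a14 and S100a16, a share near the 19.1% of all genes tested. These 2 genes are neighbours on chromosome 3 with 8416 bases between them. S100a14 encodes an S100 protein known mainly from epithelia, and S100a16 encodes one that is found in many tissues. S100a14 stood at 195 and 84.1 FPKM in KL25 replicates 1 and 2, against 40.6 and 34.7 FPKM in KL replicates 1 and 2. The KL25 libraries both stood above the KL libraries, and KL25 replicate 1 was the highest. Its mean was 140 ± 78.5 FPKM in KL25, against 37.6 ± 4.14 in KL (SD, n = 2 each), a ratio of 3.71, which was 2.23 without KL25 replicate 1. The log2 fold change was 1.74 (SE 0.477, unadjusted p = 0.0135, limma adjusted p = 0.942). S100a16 was at 147 and 75.1 FPKM in KL25 and at 34.9 and 42.4 FPKM in KL. Here too the groups did not overlap, and KL25 replicate 1 was the highest. Its mean was 111 ± 51.2 FPKM in KL25, against 38.7 ± 5.31 in KL (SD, n = 2 each), a ratio of 2.88, and 1.94 without KL25 replicate 1. The log2 fold change was 1.43 (SE 0.423, unadjusted p = 0.0185, limma adjusted p = 0.942). In the authors' deposited table the log2 fold changes were 1.87 for S100a14 (unadjusted p = 0.0169, adjusted p = 0.871) and 1.49 for S100a16 (unadjusted p = 0.0260, adjusted p = 1.00).

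Epithelial marker genes also had higher means in KL25. All 16 pan-epithelial markers had a positive log2 fold change (median 0.85), as did 53.1% of all genes tested. In 12 of the 16 the KL25 libraries both stood above the KL libraries, as in 19.1% of all genes tested. Their summed level was 4476 and 1748 FPKM in KL25, against 1210 and 1077 in KL, and none of them was at 0 in any library. S100a14 and S100a16 were therefore also set against the geometric mean of the 16 epithelial genes, a ratio added after the data were seen. That mean was 95.2 and 45.6 FPKM in KL25, against 33.1 and 31.3 in KL. Per unit of it, S100a14 was at 2.05 and 1.84 in KL25 and at 1.22 and 1.11 in KL, so the groups did not overlap in this ratio. The mean ratio was 1.67 times as high in KL25, and 1.58 to 1.76 times with any 1 library left out. For S100a16 the ratio was 1.55 and 1.65 in KL25 and 1.05 and 1.35 in KL, 1.33 times as high in KL25 and 1.18 to 1.52 times with any 1 library left out. The KL25 libraries both stood above the KL libraries in this ratio for 1.51% of all genes tested. Krt7, Krt8, Krt18 and Cldn7, which are themselves part of the epithelial mean, were among these genes, and the other epithelial genes were not. In the same ratio S100a11 lay below in both KL25 libraries, at 15.8 and 15.7 against 35.5 and 39.6 in KL, as did 56.6% of all genes tested. Ratios of single genes depended on the epithelial gene chosen. S100a14 per unit of Cldn7, a claudin of epithelial tight junctions, was 1.48 and 1.61 in KL25 and 1.58 and 1.30 in KL. S100a16 per unit of Epcam, another of the 16 epithelial genes, was 0.720 and 1.07 in KL25 and 0.604 and 1.19 in KL. The groups overlapped in that ratio, and its mean was 1.002 times as high in KL25. They overlapped for S100a14 per unit of Epcam too, with KL25 replicate 1 at 0.953 and KL replicate 2 at 0.970. Markers of other cell types also differed between the groups in mean. Of the 10 gastric markers measured, 8 were tested, all 8 with a positive log2 fold change (median 2.95), and in 7 the KL25 libraries both stood above the KL libraries. Their summed level was 2880 and 1100.2 FPKM in KL25, against 141 and 177 in KL, with Gkn3 at 0 in both KL libraries and Muc5ac at 0 in KL replicate 2. Of the 5 mesothelial markers measured, 4 were tested, all 4 positive (median 0.89) and 3 with the KL25 libraries both above. These summed to 141 and 83.9 FPKM in KL25, against 48.2 and 34.6 in KL, and none was at 0. Most of that sum was Msln, at 138 and 74.1 FPKM in KL25 and at 46.3 and 32.4 FPKM in KL. The other mesothelial markers measured were low, and each was higher in KL25 replicate 2 than in KL25 replicate 1. Of 15 leukocyte markers 13 had a negative log2 fold change (median -0.60), and in 7 the KL25 libraries both stood below the KL libraries, as in 15.0% of all genes tested. The leukocyte markers summed to 4673 and 4404 FPKM in KL25, against 11038 and 5525 in KL, and none was at 0. No marker of these lists passed in limma. The part of epithelial content in the levels of S100a14 and S100a16 was not tested beyond the ratios above, and that of the other cell types was not tested.

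**Figure D2:**
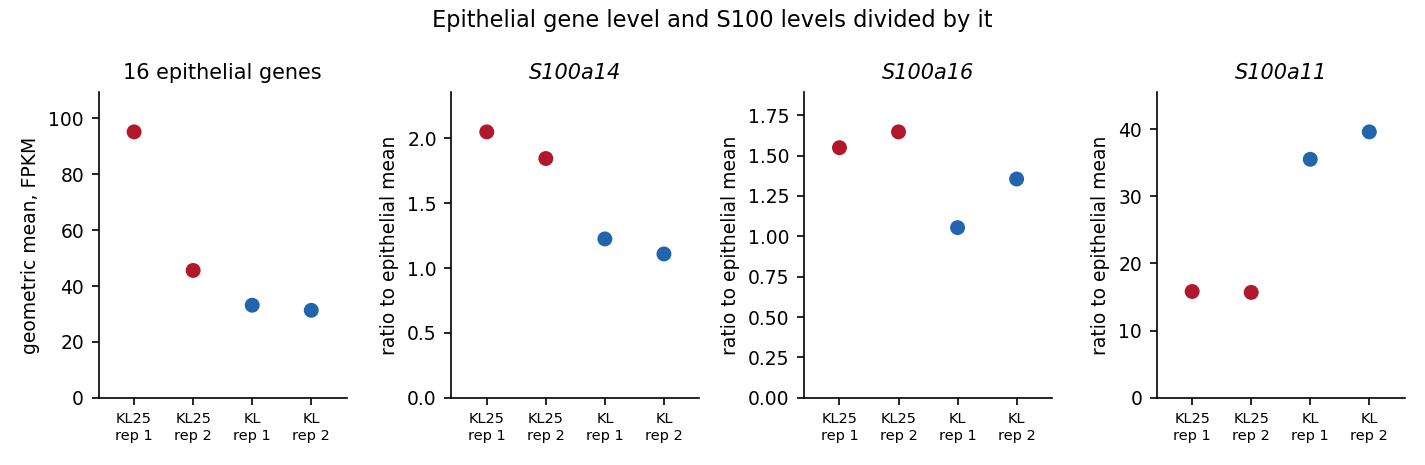
Geometric mean of 16 epithelial genes in FPKM (left) and the levels of S100a14, S100a16 and S100a11 divided by it, by library, KL25 in red and KL in blue. S100a14 and S100a16 lie higher per epithelial gene level in both KL25 libraries, and S100a11 lies lower.

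S100a6 and S100a11, the abundant members that bind calcyclin-binding protein and annexin A1, differed widely between the KL25 libraries. S100a6 was at 1430 and 470 FPKM in KL25 and at 675 and 259 FPKM in KL. In both groups replicate 1 was the higher library, and the groups overlapped. The mean was 950 ± 679 FPKM in KL25, against 467 ± 294 in KL (SD, n = 2 each), with a log2 fold change of 0.97 (SE 0.740, limma adjusted p = 0.942). The ratio of means was 2.04, with 3.67 when KL replicate 1 was left out and 1.01 when KL25 replicate 1 was. S100a11 was at 1506 and 715 FPKM in KL25 and at 1177 and 1240 FPKM in KL. The KL25 libraries held its highest and its lowest value, with the KL libraries close together between them. S100a11 was the member with a negative log2 fold change on the log2(FPKM + 1) scale, -0.22 (SE 0.498, limma adjusted p = 0.961). This value was 0.32 without KL25 replicate 2.

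The remaining members, S100a1, S100a13, S100a10, S100a4 and S100g, were each lowest in KL replicate 1. S100a16 was lowest there too, so this held for 6 of the 9 members, against 38.3% of all genes tested. S100a1, best known from heart and skeletal muscle, where it acts on calcium release, was at 1090 and 911 FPKM in KL25 and at 366 and 1131 FPKM in KL. Its log2 fold change was 0.63 (SE 0.622, limma adjusted p = 0.942), and -0.18 without KL replicate 1. S100a13, which takes part in the secretion of FGF1 without a signal peptide, was at 141 and 109 FPKM in KL25 and at 47.7 and 121 FPKM in KL. The groups overlapped for both genes, through KL replicate 2. The log2 fold change of S100a13 was 0.70 (SE 0.519, limma adjusted p = 0.942), and 0.032 without KL replicate 1. S100a10, the partner of annexin A2 at the plasma membrane, was at 417 and 294 FPKM in KL25 and at 188 and 398 FPKM in KL. It had a log2 fold change of 0.36 (SE 0.491, limma adjusted p = 0.944), which was -0.18 without KL replicate 1.

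S100a4, known as a fibroblast and macrophage marker that binds nonmuscle myosin, had the smallest difference. It was at 59.9 and 83.9 FPKM in KL25 and at 45.0 and 104 FPKM in KL, so that both KL25 libraries lay between the KL libraries. The log2 fold change of 0.053 (SE 0.490, limma adjusted p = 0.994) turned negative without KL replicate 1 (-0.54) or without KL25 replicate 2 (-0.19). Its sign also depended on the scale: the authors' deposited log2 fold change was -0.075, and the ratio of mean FPKM was 0.969. S100g was at 6.50 and 14.3 FPKM in KL25 and at 2.94 and 13.8 FPKM in KL. In each group replicate 2 was the higher library, the opposite of S100a6. Its log2 fold change was 0.49 (SE 0.722, limma adjusted p = 0.944), with -0.47 when KL replicate 1 was left out and -0.026 when KL25 replicate 2 was. Ctps2, the gene around S100g, was at 6.54 and 8.21 FPKM in KL25 and at 8.21 and 6.56 FPKM in KL.

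**Figure D3:**
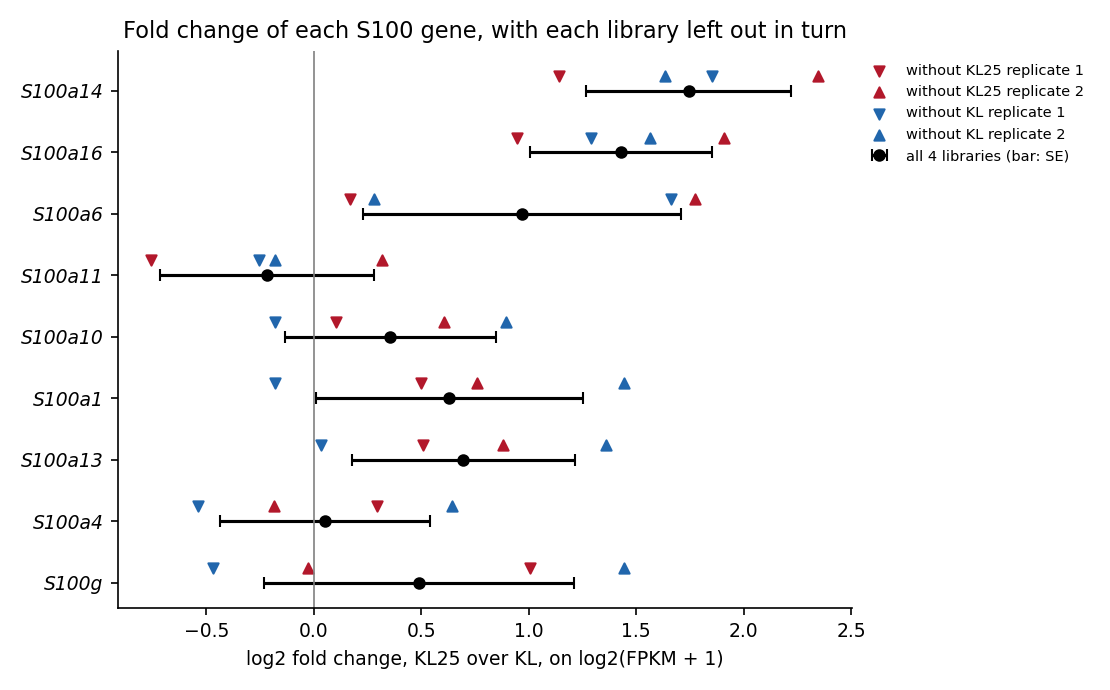
Log2 fold change of each S100 gene, KL25 over KL, on the log2(FPKM + 1) scale, from all 4 libraries (black, bars are SE) and with each library left out (triangles). S100a14, S100a16, S100a6 and S100a13 stay positive throughout, S100a13 down to 0.032, whereas S100a1, S100a10, S100a4, S100a11 and S100g cross 0.

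Marker levels differed in KL replicate 1 as well. Of 10 neutrophil markers in the table, the summed level was 2198 and 1290 FPKM in KL25, against 42517 and 784 in KL replicates 1 and 2, with Camp at 0 in KL replicate 2. Alveolar type 2 markers summed to 5207 and 4860 FPKM in KL25 and to 1645 and 4109 FPKM in KL, none at 0, and 6 of 9 were lowest in KL replicate 1. Macrophage markers summed to 41666 and 40116 FPKM in KL25 and to 20004 and 49608 FPKM in KL. Most of this sum came from Lyz2 and Chil3. None of the macrophage markers was at 0, and 7 of 12 were lowest in KL replicate 1, as were 38.3% of all genes tested. Adgre1, Csf1r and Marco went the other way and were highest in KL replicate 1, at 142, 96.2 and 170 FPKM. The 9 fibroblast markers summed to 46.2 and 127 FPKM in KL25 and to 50.4 and 63.6 FPKM in KL, with Tcf21 at 0 in KL25 replicate 1. The part of these cells in the S100 levels was not tested.

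Members next to each other on the chromosome included both like and unlike profiles. Likeness was the Euclidean distance between log2(FPKM + 1) values, each centred on its gene's mean over the 4 libraries, and is a description of 4 points. Of the 36 pairs of members the closest was S100a1 with S100a13, at 0.234, the pair whose start sites face each other and whose promoter windows share the bases printed above. S100a13 per unit of S100a1 was 0.130 and 0.120 in KL25 and 0.130 and 0.107 in KL. S100a14 with S100a16 was the third closest, at 0.501, after S100a10 with S100a13, which are not neighbours, at 0.394. Other members next to each other in this sense lay farther apart. S100a16 with S100a4, which have S100a3 between them, were at 1.83. The distance was 0.997 for S100a11 with S100a10, 1.63 for S100a13 with S100a14 and 2.51 for S100a4 with S100a6. The last of these ranked 34 of the 36 pairs, and the most distant pair was S100a6 with S100g, at 3.02. Within 100 kb of the members 8 protein-coding genes outside the S100 family were tested, a window chosen after the data were seen. Their log2 fold changes ran from -0.26 to 0.62, with a median of 0.011, and Chtop, the gene next to S100a1, was at 25.7 and 28.9 FPKM in KL25 and at 25.7 and 26.1 FPKM in KL.

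**Figure D4:**
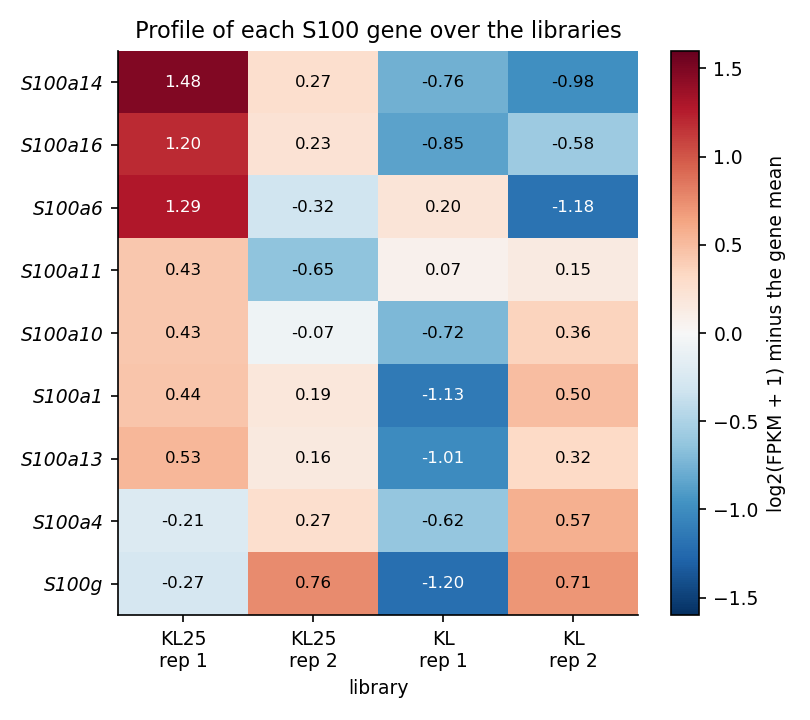
Centred log2(FPKM + 1) of each S100 gene by library, red above and blue below the gene's mean over the 4 libraries. S100a14 and S100a16 are positive in both KL25 libraries and negative in both KL libraries, S100a1 and S100a13 share a low value in KL replicate 1, and S100a6 and S100g run in opposite directions.

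Among 7535 other genes whose mean over the libraries was 5 FPKM or more, predicted-gene and clone names left out, the nearest to S100a14 were Krt23 (distance 0.231), Cldn7 and Krt18, an epithelial claudin and keratins. Nearest to S100a16 were Phlda2 (0.0993), Tmprss2, a membrane protease of epithelia, and the tropomyosin Tpm1. S100a6 was nearest to the cytokine gene Lif (0.230), Stk39 and Srd5a1, and S100a11 to Ica1 (0.229), the neutrophil chemokine gene Cxcl1 and Lactb2. For S100a1 they were Fkbp1b (0.0715), Ppp1r35 and the respiratory chain gene Ndufa12. For S100a13 they were Mettl1 (0.0319) and the ribosomal protein gene Rpl35. S100a10 lay nearest to Bphl (0.0212), Fam173b and Sema3e. S100a4 lay nearest to Rusc2 (0.0166), the lipid transporter gene Abcg1 and Plxdc2. S100g lay nearest to the endothelial transcription factor gene Sox18 (0.157), Phlda3 and Daglb.

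Of the rest of the S100 family 5 of 8 listed genes were in the table and 3 were tested, of which 0 passed in either direction. S100a8 was at 838 and 536 FPKM in KL25 and at 19445 and 382 FPKM in KL. Its log2 fold change of -2.02 (limma adjusted p = 0.942) was 0.81 without KL replicate 1. S100a9 was at 1013 and 536 FPKM in KL25 and at 18028 and 272 FPKM in KL, with a log2 fold change of -1.59, and 1.43 without KL replicate 1. Both lay far above the other libraries in KL replicate 1, the library in which 6 members were lowest. S100b was at 1.41 and 0.650 FPKM in KL25 and at 0.216 and 1.54 FPKM in KL. S100a3 and S100a7a were listed above 0 in KL25 replicate 1 alone, at 0.479 and 0.898 FPKM, on mean normalized counts of 1.17 and 2.05. Of 7 fused-type S100 genes, long proteins of the skin barrier encoded in the same cluster, Tchh alone was tested, at 1.42 and 2.10 FPKM in KL25 and at 1.34 and 2.67 FPKM in KL.

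Annexins, the main partners of S100 dimers, mostly had positive log2 fold changes. All 12 listed were tested and 0 passed, 10 had a positive log2 fold change, against 53.1% of all genes tested, and the median was 0.39 against 0.030 over all genes tested. In 5 of the 12 the KL25 libraries both stood above the KL libraries, as in 19.1% of all genes tested, and in none below, against 15.0%. Anxa10, an annexin of the gastric lining, was at 67.3 and 21.0 FPKM in KL25 and at 4.001 and 6.68 FPKM in KL, with a log2 fold change of 2.64 (SE 0.603, unadjusted p = 0.00644, limma adjusted p = 0.942). Anxa3 was at 226 and 188 FPKM in KL25 and at 110 and 143 FPKM in KL, a log2 fold change of 0.71. Anxa1, the partner of S100a11, was at 1624 and 759 FPKM in KL25 and at 842 and 506 FPKM in KL, and Anxa8 at 12.3 and 12.7 FPKM in KL25 and at 9.83 and 7.97 FPKM in KL. Anxa1 followed the S100a6 pattern, with replicate 1 the higher library of each group.

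**Figure D5:**
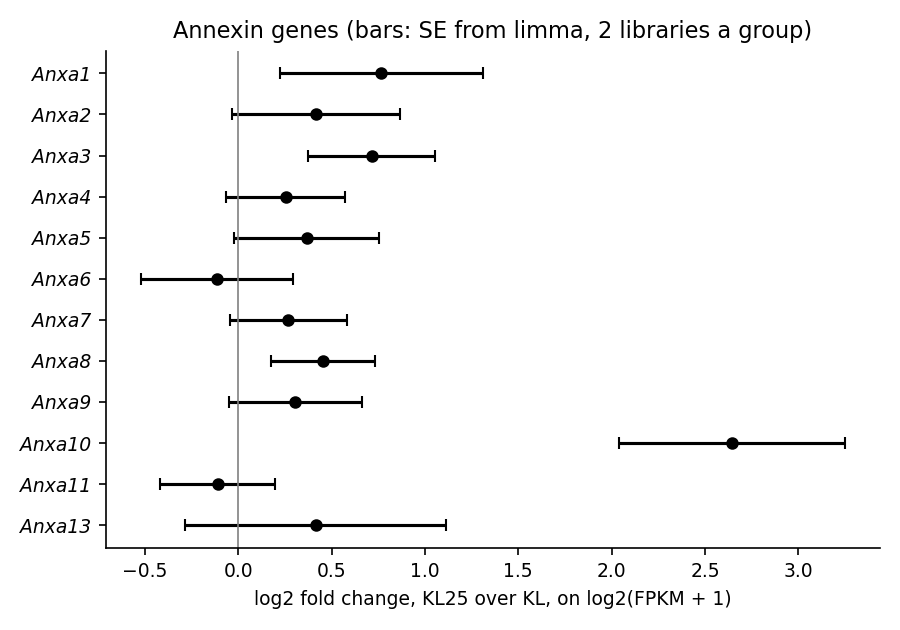
Log2 fold change of 12 annexin genes, KL25 over KL, on the log2(FPKM + 1) scale, with SE bars from limma. Anxa10 stands highest at 2.64, and Anxa6 and Anxa11 lie below 0.

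S100a10 and its partner annexin A2 were compared as a ratio within each library. S100a10 per unit of Anxa2 was 0.309 and 0.295 in KL25 and 0.279 and 0.356 in KL, with a mean of 0.302 ± 0.00956 in KL25 and 0.318 ± 0.0547 in KL (SD, n = 2 each). For S100a11 per unit of Anxa1 it was 0.928 and 0.942 in KL25 and 1.40 and 2.45 in KL, so the KL25 libraries both stood below the KL libraries. These ratios are of FPKM and show only how the levels of the genes compare within a library.

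Other partners and receptors did not pass either. Of 12 listed protein partners 10 were tested, 0 passed, 6 were positive and 4 negative, and the median log2 fold change was 0.12. Fgf1, the growth factor exported with S100a13, was at 4.13 and 4.53 FPKM in KL25 and at 2.25 and 2.00 FPKM in KL, with a log2 fold change of 0.77 (SE 0.290, unadjusted p = 0.0430, limma adjusted p = 0.942). For Fgf1 the KL25 libraries both stood above the KL libraries, and the log2 fold change was 0.71 to 0.83 with any 1 library left out. Such a separation was seen in 2 of the 10 partners tested, and in 19.1% of all genes tested. In 3 of the 10, with Iqgap1 and Myh9 among them, the KL25 libraries both stood below the KL libraries, as in 15.0% of all genes tested. Iqgap1, a scaffold that binds actin, was at 95.8 and 105 FPKM in KL25 and at 182 and 113 FPKM in KL. Myh9, the nonmuscle myosin bound by S100a4, was at 73.0 and 95.9 FPKM in KL25 and at 121 and 97.8 FPKM in KL. Dysf, a membrane repair protein, was at 6.03 and 4.34 FPKM in KL25 and at 1.97 and 5.25 FPKM in KL. Of 5 receptor genes 0 passed and 4 were positive (median 0.21). Ager, which also marks alveolar type 1 cells, was at 66.4 and 111 FPKM in KL25 and at 37.2 and 108 FPKM in KL. Tlr4, a receptor of S100a8 and S100a9, was at 12.4 and 15.3 FPKM in KL25 and at 48.9 and 13.5 FPKM in KL, high in KL replicate 1 as they were. Bsg was at 448 and 287 FPKM in KL25 and at 255 and 283 FPKM in KL, and Alcam at 27.1 and 25.5 FPKM in KL25 and at 34.6 and 14.5 FPKM in KL.

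The plasminogen system, which S100a10 with annexin A2 localises to the cell surface, had log2 fold changes of both signs. Of 7 genes 6 were tested, 0 passed, 2 were positive and 4 negative (median log2 fold change -0.098). Plau, the urokinase gene, was at 42.4 and 22.4 FPKM in KL25 and at 26.2 and 20.9 FPKM in KL. Plat was at 24.8 and 12.0 FPKM in KL25 and at 18.1 and 11.2 FPKM in KL. Serpinb2 was at 5.06 and 4.87 FPKM in KL25 and at 27.9 and 1.11 FPKM in KL. Replicate 1 was the higher library in each group for these 3 genes.

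Genes of vitamin D action and calcium transport, in which S100g works in the gut, were mostly low. Of 11 listed 9 were in the table and 5 were tested, of which 0 passed, 2 were positive and 3 negative (median log2 fold change -0.14). Vdr, the vitamin D receptor, was at 5.36 and 3.50 FPKM in KL25 and at 3.23 and 3.93 FPKM in KL. The plasma membrane calcium pumps Atp2b1 and Atp2b4 were at 27.1 and 18.2, and at 0.466 and 0.741 FPKM in KL25, against 24.1 and 13.98, and 1.44 and 0.781 FPKM in KL. The sodium-calcium exchanger Slc8a1 was at 1.21 and 1.84 FPKM in KL25 and at 2.03 and 2.23 FPKM in KL. The calcium channel genes Trpv5 and Trpv6 did not pass the level filter, and Trpv5 was listed at 0 in 3 of the 4 libraries.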

How the data were processed

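RNA of 2 KL25 and 2 KL samples was sequenced with a strand-specific kit, trimmed with cutadapt, aligned to GRCm38 and counted per gene with HTSeq, per the labels' protocols. The submitters' processing notes list GRCm38 and GRCm39. No aligner, tool version or strand option is given in the sources used here. The authors deposited values per library, taken here as FPKM from their totals (526632 to 565613) and from not being whole. Per the file headers the authors also deposited a mean normalized count signal, log2 fold changes with standard errors, a test score, and unadjusted and adjusted p-values, NA for 6650 of the 21420 genes used. The other deposited tables were not used. Of 21445 rows, 25 with names turned into dates were left out (0.117% of FPKM).

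The design assumed counts or FPKM, and the FPKM rule was used: limma 3.58.1 (R 4.3.3) on log2(FPKM + 1), trend option on, over genes whose mean reached 1 FPKM in KL25 or in KL, Benjamini-Hochberg adjustment over all of them and a threshold of 0.05. The log2(FPKM + 1) scale understates changes of low genes. The comparison was KL25 against KL without covariates. Depth came from the deposited means: among genes seen in a single library 100% were whole multiples of 1 step within 0.01, which gives that library's size factor. Counts per gene were not recovered, so no counting interval is given. Groups followed the sample titles. The members, gene lists and marker lists were chosen with earlier results of these data known. Named were all members, Usp25, up to 4 genes of each list with the lowest unadjusted p, and the 3 genes nearest each member. Of these, 2 genes are not reported here. Ctps2, Chtop, Cldn7, Epcam, Krt7, Krt8, Ptprc, Adgre1, Csf1r, Marco, Lyz2, Chil3, Msln, Anxa2 and genes named at 0 were added after their values were seen. A self-test used 20 simulated tables of 12476 genes, in which 0.0155% of unchanged genes were called. Promoter sequences are from RefSeq (GRCm38.p6). Alternatives covered the pseudocount, level filter, scaling, trend, replicate number and each library left out.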

Additional observations from a re-analysis of the deposited data

How the results depend on the processing

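With pseudocounts of 0.1 and 5, no level filter, median scaling, quantile normalization, no mean-variance trend and the replicate block, all 34 named genes and the median of the members kept their direction. With a filter of 5 FPKM 28 named genes were tested and kept theirs, as did the median, while S100b, Tchh, Fgf1, Atp2b4, Slc8a1 and Vdr fell under the filter. In each of these fits 0 genes of the whole table passed in limma in either direction, also with any 1 library left out. At an unadjusted p below 0.05 the counts were 269 higher and 134 lower, and 1205 and 1445 without KL replicate 2. Leaving out 1 library turned the direction of the median of the members, which ran from -0.18 to 1.36, and of 18 named genes. Their log2 fold changes ran over these fits as follows: S100a1 -0.18 to 1.44, S100a4 -0.54 to 0.65, S100a10 -0.18 to 0.89, S100a11 -0.76 to 0.32, S100g -0.47 to 1.44, S100a8 -4.86 to 0.81, S100a9 -4.61 to 1.43, S100b -0.35 to 0.71, Tchh -0.42 to 0.23, Dysf -0.029 to 1.04, Tlr4 -1.76 to 0.025, Ager -0.33 to 1.18, Alcam -0.39 to 0.82, Plau -0.057 to 0.83, Plat -0.23 to 0.76, Serpinb2 -2.28 to 1.50, Vdr -0.020 to 0.48, Atp2b1 -0.11 to 0.64. Atp2b4 without KL replicate 1 and S100b without KL25 replicate 1 fell under the level filter and gave no value. Such a fit leaves 1 library in a group, assumed to vary like the other group. The cause was not tested. Replicate numbers are shared between the groups only as numbers: the deviations of replicate 1 from the group mean correlated at 0.152 across genes between KL25 and KL, and with the replicate block 0 genes passed (lowest adjusted p = 0.0590), the median of the members was 0.63, and 373 genes higher and 252 lower had an unadjusted p below 0.05. Of the 3 genes nearest to each member, 0 to 3 were shared with those at a pseudocount of 0.1 and 0 to 2 with those at 5. S100g, with a mean normalized count of 51.0, has the fewest reads behind its value.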
